A study of Mus musculus with 2 samples.

Results

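General capillary endothelial cells of the mouse lung were chosen by their UMI counts (unique molecular identifiers, each counting 1 captured RNA molecule) in single-cell libraries from tumor-bearing mice given saline or polymer nanoparticles. Cells with 500 to 5000 detected genes, under 7.5% of UMIs from mitochondrial genes and under 5% from S100a8 and S100a9 (genes of neutrophils) were taken. A cell was endothelial if it held at least 3 UMIs summed over Cldn5, Cdh5, Pecam1 and Egfl7, under 3 of the collagen genes Col1a2 and Col3a1, and 0 of Csf1r and of Cd79a. Of the endothelial cells, those with under 2 UMIs of Car4 and Ednrb, under 3 of Vwf and at least 3 of Gpihbp1 and Plvap were kept. The rule found 961 general capillary cells among 16995 cells: 195 of 8662 saline cells and 766 of 8333 cells from the nanoparticle (NP) lungs.

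Both libraries came from the lungs of female BALB/c mice, 12 weeks old, that had received 100000 cells of 4T1, a mouse mammary carcinoma line that spreads to the lung; the methods name the line as 4T1-luc2-tdTomato, which carries a luciferase and a red fluorescent protein. The mice were given either saline or cargo-free nanoparticles of poly(lactide-co-glycolide) (PLG) intravenously, 5 doses at intervals of 3 days, with the first dose 1 day after the tumor cells by the study's methods, and the lungs were taken on day 14. Each library pooled the lungs of several mice, 4 by the sample labels and 5 by the methods, with no label tying a cell to a mouse, and no tumor-free lung was measured. There was thus 1 library per group and no replicate, so no test was possible, mice and groups could not be told apart, and the intervals given here (95%) cover counting error only, since all cells of a library share their mice, their digestion and their chip.

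The general capillary cells held 639820 UMIs in saline and 2518229 in NP. Their median depth was 2775 and 2674.5 UMIs a cell, from 1458 and 1382 genes. The median share of mitochondrial genes in a cell was 4.12% and 4.30%. The cells of both libraries were thus measured to a like depth, while the saline sum rests on fewer cells and carries the wider counting error. No barcode was shared between the general capillary cells of the libraries, and 21 were shared over all cells.

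The alveolar capillary of the lung holds 2 kinds of endothelial cell. Aerocytes are broad, thin cells that carry carbonic anhydrase IV (Car4) and the endothelin B receptor (Ednrb) and line the surface where gas is exchanged, while general capillary cells line the rest of the net, carry the lipase anchor GPIHBP1, and can divide and give rise to both kinds after injury. Endothelial cells also show antigen: all of them carry MHC class I, which presents peptides from inside the cell to CD8+ T cells, and under interferon-gamma, a cytokine of T and NK cells, they can add MHC class II, which presents to CD4+ T cells. Interferon-gamma acts through its receptor, JAK kinases and a STAT factor to induce IRF1, the class II transactivator CIITA, the class I transactivator NLRC5, guanylate-binding proteins and immunity-related GTPases.

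The label was checked against markers that the rule did not use. Cd36, the fatty acid translocase of capillary endothelium, stood at 2290 CPM (its UMIs per 1000000 UMIs of the pooled cells) in saline and 2148 in NP, against 2 and 3 CPM in the T cells of the same libraries. It told these cells from T cells, the only cells outside the endothelium compared here, and not the kinds of capillary cell apart, since aerocytes had 2593 and 2227 CPM. Aplnr, the apelin receptor, was at 280 and 261 CPM, against 178 and 158 in the aerocytes and 52 and 87 in the Vwf-positive endothelial cells. Kit, the stem cell factor receptor, was at 664 and 726 CPM, against 419 and 377 in aerocytes. The 8 aerocyte markers that the rule did not use were all below their level in aerocytes, some near 0 and others not. Apln, the apelin ligand, was at 3 and 4 CPM (59 and 94 in aerocytes), Emp2 at 281 and 265 CPM (1520 and 1602) and Kitl, the ligand of KIT, at 209 and 196 CPM (611 and 699). The closest was Cyp4b1, at 539 and 494 CPM (1006 and 1160). Of the venous markers, Ackr1 had 0 UMIs in both libraries, Selp 0 and 1 UMI, and Slc6a2 0 and 5 UMIs. Prss23 was at 122 and 185 CPM, against 738 and 868 CPM in Vwf-positive cells, and Nr2f2, a venous transcription factor, at 36 and 51 CPM, against 70 and 155. Arterial markers went both ways. Sox17 was at 416 and 306 CPM, against 134 and 167 in Vwf-positive cells, and Hey1 at 283 and 245 CPM, against 163 and 152. Gja4, Dll4 and Efnb2 were also above their levels in Vwf-positive cells in both libraries, while Gja5, Bmx and Mgp were below them and Dkk2 had 0 UMIs. Glp1r, the receptor of the gut hormone GLP-1, was at 54.7 and 66.7 CPM, against 34.8 and 53.7 in aerocytes and 29.1 and 24.9 in Vwf-positive cells. Ptprb was at 1439 and 1573 CPM, against 916 and 813 in aerocytes but 2105 and 2048 in Vwf-positive cells. Cd93, Tek and Sema3c were highest of the 3 classes in NP, at 988, 649 and 672 CPM. In saline they were at 1057, 575 and 664 CPM, below the 1302, 599 and 674 of the 31 Vwf-positive cells, and Sema3c also below the 691 of aerocytes. Aplnr, Kit and Glp1r were thus highest here in both libraries, Cd93, Tek and Sema3c in NP alone, and Cd36 and Ptprb in neither, with aerocyte and venous markers lower than in their own classes and a few lymphatic cells possible among them, since Prox1, the defining factor of lymphatic endothelium, had 3 UMIs in saline and 14 in NP, and Ccl21a had 201 UMIs in 1 saline cell and 1246 in 9 NP cells.

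The identity markers lay close to each other in the libraries. The log2 ratio of NP to saline CPM was −0.09 for Cd36 (95% interval −0.18 to −0.01), 0.13 for Kit (−0.03 to 0.28), −0.10 for Aplnr and 0.13 for Ptprb, the vascular endothelial tyrosine phosphatase. The genes of the rule chose the cells, and their values are only a description. The sum of Gpihbp1 and Plvap (the diaphragm protein of fenestrae and caveolae) had a median of 13 UMIs a cell in both libraries, and the sum of the 4 endothelial genes a median of 29 in saline and 24.5 in NP. Just inside the limit, with 3 UMIs of Gpihbp1 and Plvap, were 13 saline and 43 NP cells with 695 and 1667 CPM of Cd36. Just outside it, with 2 UMIs, were 10 and 44 cells with 852 and 948 CPM. Ptprb was at 445 and 1140 CPM inside and 687 and 535 CPM outside. On the side of the aerocytes, 43 and 205 cells had 1 UMI of Car4 and Ednrb and were kept, with 2694 and 2337 CPM of Cd36, and 33 and 115 cells had 2 UMIs and were not, with 2862 and 2349. At the Gpihbp1 and Plvap limit Cd36 and Ptprb were thus higher inside than outside in NP and lower in saline, and at the aerocyte limit Cd36 was at like levels on both sides.

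General capillary cells made up 2.25% of all saline cells (1.95% to 2.59%, exact Clopper-Pearson interval) and 9.19% of all cells in NP (8.58% to 9.83%), 4.08 times as much. Cells over the S100a8 and S100a9 limit filled most of the saline library: 3113 of its 8662 cells were under it, against 5190 of 8333 in NP. Over the cells under the limit, the shares were 6.26% (5.44% to 7.17%) and 14.8% (13.8% to 15.8%), 2.36 times as much. Among endothelial cells alone, 436 in saline and 1504 in NP, general capillary cells were 44.7% (40.0% to 49.5%) and 50.9% (48.4% to 53.5%), 1.14 times as much. The aerocyte share of endothelial cells was 35.6% and 32.9%. The difference in share was therefore large over all cells and small within the endothelium. By this rule all endothelial cells, 436 of 8662 in saline and 1504 of 8333 in NP, were 3.59 times as large a share in NP. The study's own cell types, from the same libraries, gave an endothelial share of lung cells only slightly larger with NP. The large difference over all cells thus holds for this rule, and why the study's share differs was not tested. Shares after a tissue digestion depend on how well each cell type is released, and more endothelial cells and fewer other cells cannot be told apart from them.

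Gene levels were compared as the log2 ratio of pooled CPM, with a count under 3 set to 3. Over the 4906 genes with at least 100 UMIs that the rule did not use, the median ratio was −0.03. There were 90 genes at least 2-fold higher in NP, 1.83% of those compared, and 43 at least 2-fold lower, 0.876%. Both counts rest in part on a few cells: without the highest doublet scores 55 were higher, and without 5 saline and 9 NP cells that show another cell type 78 were higher and 22 lower, 16 of these among the 43. Of the 90, 37 were on the lists of interferon-gamma response, interferon-alpha response, MHC class I or MHC class II genes, 11 were on lists of other cell types and 42 on neither. Of the 43 lower genes 0 were on an interferon or MHC list and 10 were on lists of other cell types, while others outside those lists, such as Slc34a2 (203 saline UMIs in 3 cells), are also known from alveolar epithelium. Most genes of the general capillary cells thus lay near the same level in both libraries. Interferon and antigen presentation genes were 37 of the 90 in the higher tail, fewer than the 42 on none of the counted lists.

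**Figure D1:**
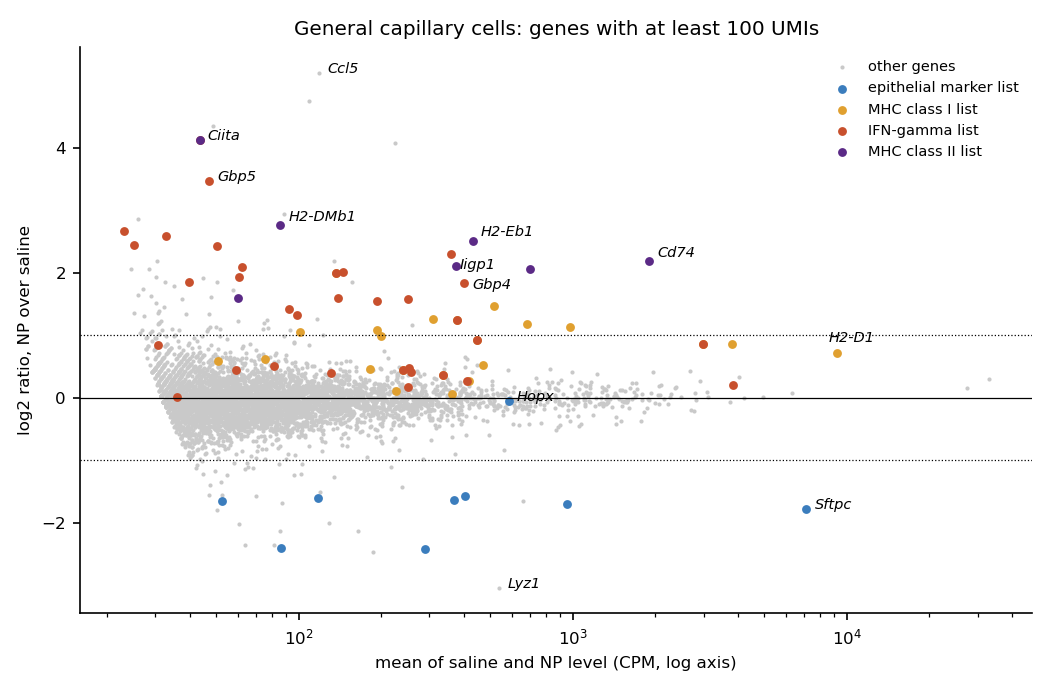
Log2 ratio of NP to saline CPM (vertical axis) against the mean CPM of both libraries (horizontal axis, logarithmic) in general capillary cells, 1 point per gene with at least 100 UMIs, genes of the rule left out; dotted lines mark a 2-fold difference. Genes of the MHC class II, interferon-gamma and MHC class I lists lie above the median of all genes, −0.03, some of them close to it. Epithelial genes, whose UMIs lay largely in single cells, lie below that median.

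At the top of the pathway, the receptor genes were at like levels in both libraries. Ifngr1, the ligand-binding chain of the interferon-gamma receptor, had 172 UMIs in saline and 740 in NP, 269 and 294 CPM, a log2 ratio of 0.13 (−0.11 to 0.38), and was seen in 102 saline and 409 NP cells. Ifngr2, the second chain, was at −0.36 (−0.86 to 0.17), Jak1 at 0.26 and Jak2 at 0.22. The type I interferon receptor chains Ifnar1 and Ifnar2 were at 0.33 and −0.27. General capillary cells thus held RNA for both receptors in saline as in NP, at levels within 1.3-fold of each other. The ligand Ifng had 0 UMIs in saline and 6 in NP, in 3 cells, and Ifna1 and Ifnb1 had 0 in both, where a count of 0 allows up to 4.69 CPM in saline and 1.19 CPM in NP. These receptor and ligand genes were chosen after other values had been seen.

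Of the 44 genes on the interferon-gamma list, 39 had at least 20 UMIs. All 39 had a ratio above 0, 22 were at least 2-fold higher in NP and 0 at least 2-fold lower, where 3.89% and 3.13% of all 9658 genes with at least 20 UMIs were past these limits. The list's median was 1.33, beside −0.04 for all genes. This and the other lists were chosen with earlier results of these data known, so the counts are a description and not a test. Ciita and the MHC genes of this list also count in the MHC lists. The summed level of the interferon-gamma list was 9045 CPM in saline and 15057 CPM in NP.

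The regulators of the pathway spread widely. Ciita, the transactivator that MHC class II transcription requires, had 3 UMIs in 3 saline cells and 207 UMIs in 142 NP cells, 4.69 and 82.2 CPM, a log2 ratio of 4.13 (2.56 to 6.42). Nlrc5, its counterpart for class I, had 6 and 59 UMIs (1.32, interval 0.11 to 2.82). Irf1, an early target of the receptor, had 135 and 740 UMIs (0.48, interval 0.21 to 0.75), and Irf9 stood at 0.45. Irf8, better known from myeloid and B cells, had 3 UMIs in saline and 84 in 27 NP cells, of which 42 were in 1 cell. Socs1, an inhibitor of the receptor's signal that is itself induced by it, had 14 and 99 UMIs (0.85, interval 0.03 to 1.77). Ciita was thus far higher in NP and spread over many cells, while Irf1 differed by under 2-fold. For Irf8, 1 cell held 42 of the 84 NP UMIs.

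The GTPases that interferon-gamma induces against intracellular parasites and bacteria were higher together. Gbp5, a guanylate-binding protein that promotes inflammasome assembly, had 5 UMIs in 5 saline cells and 218 in 123 NP cells, 7.81 and 86.6 CPM, a ratio of 3.47 (2.22 to 5.11). Gbp4 had 112 UMIs in 54 saline cells and 1581 in 466 NP cells, 175 and 628 CPM, a ratio of 1.84 (1.57 to 2.13). Igtp, an immunity-related GTPase, had 37 UMIs in 22 saline cells and 587 in 273 NP cells, 57.8 and 233 CPM. Its ratio was 2.01 (1.53 to 2.53), or 3.02 (2.28 to 3.87) with mitochondrial UMIs under 5%. Gbp5, Gbp4 and Igtp were each seen in a larger share of the NP cells. Iigp1, the GTPase that attacks the vacuole of Toxoplasma, went from 122 CPM in saline to 599 in NP, a ratio of 2.30 (1.97 to 2.64). Gbp6 stood at 2.59, Gbp3 at 2.10, Irgm2 at 1.94, Gbp7 at 1.58 and Ifi47 at 1.55. Gbp2 stood at 1.42 and Tgtp2 at 2.44, but Tgtp2 has a near-identical copy in the genome (Tgtp1), so how its counts split is uncertain. How counts split between alike genes of these families was not examined. At the other end of the list, Gch1 was at 0.01, Icam1, the leukocyte adhesion molecule, at 0.17 (−0.09 to 0.43) and the abundant antiviral gene Ifitm3 at 0.20 (0.14 to 0.27).

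Promoters are shown for the leading genes, because members of the list were higher together; they are the 3 highest of the list with at least 100 UMIs and an entry. They were read from RefSeq for GRCm38.p6, the build of the files, from 250 bases before to 50 after the start of the gene, on the gene's strand. In the sequences of Gbp5 (chr3:142496684-142496983, plus strand), Cxcl10 (chr5:92348840-92349139, minus strand) and Cd274 (chr19:29367188-29367487, plus strand), capitals mark the core of the interferon-stimulated response element bound by IRF and STAT complexes (GAAA, any 2 bases, GAAA), TTCNNNGAA, the gamma-activated site bound by STAT dimers, and CTGATTGG, the Y box bound by NF-Y, each searched on both strands, with no overlap between matches here.
Gbp5: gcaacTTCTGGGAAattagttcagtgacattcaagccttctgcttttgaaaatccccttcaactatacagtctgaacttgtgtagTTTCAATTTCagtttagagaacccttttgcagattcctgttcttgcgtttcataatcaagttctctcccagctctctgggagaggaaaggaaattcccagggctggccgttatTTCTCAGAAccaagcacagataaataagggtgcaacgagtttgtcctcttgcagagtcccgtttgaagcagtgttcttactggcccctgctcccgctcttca
Cxcl10: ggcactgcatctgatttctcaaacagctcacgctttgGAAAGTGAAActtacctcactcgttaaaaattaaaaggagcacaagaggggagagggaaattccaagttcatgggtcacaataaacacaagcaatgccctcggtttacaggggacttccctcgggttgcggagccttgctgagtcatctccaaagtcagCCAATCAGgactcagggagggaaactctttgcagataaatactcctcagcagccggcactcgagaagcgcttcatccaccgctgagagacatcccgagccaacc
Cd274: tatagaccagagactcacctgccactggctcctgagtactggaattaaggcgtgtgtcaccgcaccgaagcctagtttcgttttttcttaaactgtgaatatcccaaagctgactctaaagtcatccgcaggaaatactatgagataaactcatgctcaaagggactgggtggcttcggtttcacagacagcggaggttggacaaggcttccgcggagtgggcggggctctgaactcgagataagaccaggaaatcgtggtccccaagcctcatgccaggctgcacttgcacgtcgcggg
The Gbp5 window held 1 response element core, its first base 165 before the start, and 2 gamma-activated sites, at 245 and 52 before it. The Cxcl10 window held 1 core at 213 and a Y box at 54 before the start. The Cd274 window held none of the 3 motifs. The GENCODE vM21 model of Gbp5 (chr3:142493978-142522344, plus strand) begins upstream of this window, so for that model the window lies inside the gene. Over all 32817 promoters in the table, 3.43% held the response element core and 8.29% the gamma-activated site. Among interferon-gamma list genes with at least 100 UMIs, 25 of 33 matched an entry. The core was in 9 of the 13 of these that were at least 2-fold higher in NP and in 4 of the other 12, and the gamma-activated site in 5 of 13 and 5 of 12. A match describes the letters of the window and is not a measured binding site. Ciita (chr16:10480059-10528418, plus strand, GRCm38) and Gbp6 have no entry there.

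MHC class I genes were abundant in both libraries and higher in NP. All 23 genes of the list had at least 20 UMIs and a ratio above 0, with a median of 0.86, 9 at least 2-fold higher and 0 lower. Among all 9658 genes with at least 20 UMIs, 3.89% were that much higher and 3.13% that much lower. Their sum was 16262 CPM in saline and 28385 in NP, a ratio of 0.80 (0.77 to 0.83). Of the heavy chains, H2-D1 had 4445 and 28907 UMIs, 6947 and 11479 CPM, a ratio of 0.72 (0.68 to 0.77), and was seen in 194 of 195 saline cells and all 766 NP cells. H2-K1 went from 2702 to 4901 CPM, a ratio of 0.86 (0.79 to 0.93), and B2m, the light chain, from 2124 to 3854 CPM, also 0.86 (0.78 to 0.94). Classical class I was thus on in nearly every cell of both libraries and under 2-fold higher in NP.

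The nonclassical chains and the peptide supply differed more. H2-Q7 stood at 1.48 and H2-Q6 at 1.27, with reads that may be shared between these near-identical genes, and H2-T23, the mouse Qa-1 chain read by NK receptors, at 1.13 (0.98 to 1.29). Tap1, a chain of the pump that carries peptides into the endoplasmic reticulum, had 35 UMIs in 32 saline cells and 549 in 326 NP cells, 54.7 and 218 CPM, a ratio of 1.99 (1.50 to 2.53), and its partner Tap2 stood at 1.00 (0.67 to 1.34). Psmb9, a catalytic subunit of the immunoproteasome, was at 1.24 (0.99 to 1.50) and Psmb8 at 0.93. The loading protein Tapbp was at 0.45, and the general folding helpers of the endoplasmic reticulum Canx and Pdia3 were at 0.11 and 0.07. The ratios thus ran from near 0 for Canx and Pdia3 to 1.99 for Tap1.

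MHC class II had the highest median of all lists of the endothelial programmes. Of its 12 genes, 8 had at least 20 UMIs, and all 8 were at least 2-fold higher in NP, with a median of 2.15, or 2.92 without cells that show another cell type. Over all genes with at least 20 UMIs, 3.89% were at least 2-fold higher. Their sum was 820 UMIs in saline and 14921 in NP, 1282 and 5925 CPM, a ratio of 2.21 (2.11 to 2.31). Cd74, the invariant chain that guides class II to the endosome, had 437 and 7839 UMIs, 683 and 3113 CPM, a ratio of 2.19 (2.05 to 2.33), and was seen in 59 of 195 saline cells and 714 of 766 NP cells. Of its saline UMIs, 248 were in 5 cells that showed RNA of another cell type, and without such cells it was at 320 and 3112 CPM, a ratio of 3.28 (3.07 to 3.50). H2-Eb1, a class II beta chain, had 82 UMIs in 43 saline cells and 1850 in 534 NP cells, 128 and 735 CPM, a ratio of 2.52 (2.20 to 2.86). The other chains showed the same: H2-Aa went from 141 to 606 CPM, a ratio of 2.11 (1.80 to 2.43), and H2-Ab1 from 269 to 1130 CPM, a ratio of 2.07 (1.85 to 2.30). H2-DMb1, part of the exchange factor that loads peptides, had 14 and 375 UMIs (2.77, interval 2.00 to 3.65), and H2-DMa was at 1.60 (0.93 to 2.36). Chains, invariant chain, exchange factor and transactivator were therefore all higher in NP. Of the costimulatory genes, chosen after other values had been seen, Cd80 and Cd86 had 0 UMIs in both libraries and Icosl had 0 in saline and 8 in 7 NP cells. Cd274 (PD-L1), the inhibitory ligand of that family and a gene of the interferon-gamma list, was among the 10 highest ratios outside the lists of other cell types. It had 5 UMIs in 4 saline cells and 107 in 80 NP cells, at most 4 in a cell, 7.81 and 42.5 CPM, a ratio of 2.44 (1.18 to 4.09). Its ratio was 2.38 (1.36 to 3.61) in aerocytes.

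The promoters of a beta and an alpha chain of class II, chosen after the values had been seen, are shown for the Y box CTGATTGG, the NF-Y element at which the class II enhanceosome recruits CIITA. H2-Eb1 is at chr17:34305617-34305916 on the plus strand and H2-Aa at chr17:34287774-34288073 on the minus strand, and capitals mark the Y box.
H2-Eb1: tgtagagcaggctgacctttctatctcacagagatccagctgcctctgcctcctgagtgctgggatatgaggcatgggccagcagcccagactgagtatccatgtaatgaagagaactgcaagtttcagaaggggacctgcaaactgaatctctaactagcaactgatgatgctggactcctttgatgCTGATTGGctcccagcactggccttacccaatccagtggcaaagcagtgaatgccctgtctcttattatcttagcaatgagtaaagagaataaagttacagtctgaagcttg
H2-Aa: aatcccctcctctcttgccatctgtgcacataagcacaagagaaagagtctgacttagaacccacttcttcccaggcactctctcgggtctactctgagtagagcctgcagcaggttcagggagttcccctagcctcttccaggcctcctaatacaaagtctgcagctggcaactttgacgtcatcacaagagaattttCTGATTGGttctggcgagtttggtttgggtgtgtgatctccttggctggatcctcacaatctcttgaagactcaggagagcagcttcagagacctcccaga
The Y box began 62 bases before the start of H2-Eb1 and 51 before that of H2-Aa. It was in 4.09% of all promoters on either strand, and in 4 of the 9 MHC class II list genes with an entry.

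**Figure D2:**
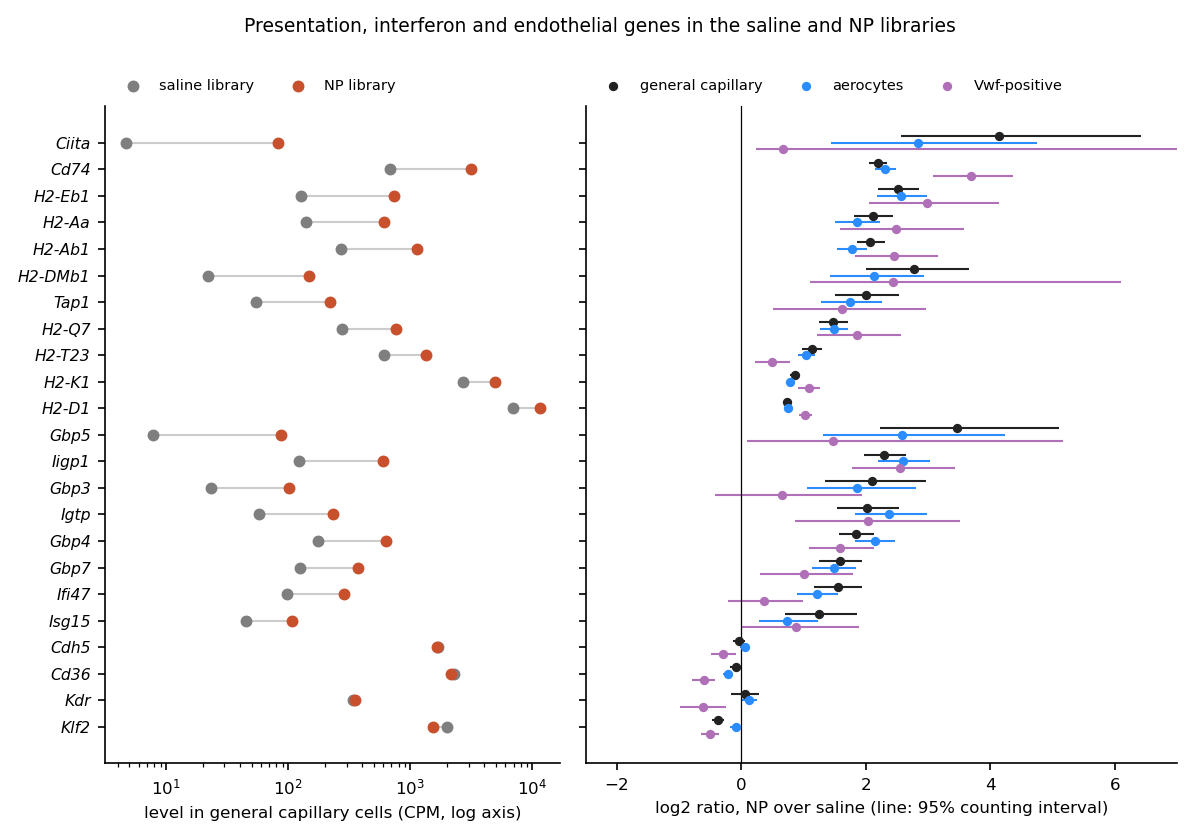
Left, CPM of 23 genes in general capillary cells of the saline and NP libraries (logarithmic axis). Right, log2 ratio of NP to saline with its 95% counting interval in general capillary cells, aerocytes and Vwf-positive endothelial cells; intervals are drawn up to 7. Class II genes such as Cd74, 683 CPM in saline and 3113 in NP, have positive ratios in all 3 kinds of cell, and Cd36 and Kdr lie near 0 in general capillary cells.

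Cells were thinned to 1000 UMIs each to compare shares at 1 depth, which left 179 saline and 721 NP cells and left out 16 and 45 shallower ones. At this depth Cd74 was seen in 17.3% of cells from saline (12.1% to 23.7%) and in 82.0% from NP (79.0% to 84.7%), and unthinned in 30.3% and 93.2%. In T cells, which lack the gene, the thinned share was 0% of 274 cells in saline and 1.90% of 211 cells in NP, and unthinned 7.66% and 9.95%, at median depths of 5979.5 and 6119 UMIs before thinning. The T cells were thinned from a greater depth, so a background that is equal per droplet is cut more in them. H2-Eb1 was seen in 10.6% and 46.2% of the thinned general capillary cells. The values for Iigp1 were 6.70% and 26.9%. Cd36, whose level was alike in the libraries, was seen in 82.7% and 82.8%. At this depth Cd74 was thus seen in a minority of saline cells and in most NP cells, and H2-Eb1 in a minority of both. A cell with 0 UMIs of a gene may still hold its RNA. The Cd74 shares in T cells were lower both thinned and unthinned.

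Within a library the cells did not differ equally in all lists. Of 1000 UMIs, the median saline cell had 17 of MHC class I (quartiles 12 and 21) and the median NP cell 29 (22 and 36). For the interferon-gamma list the medians were 9 (6 and 12) and 14 (10 and 19). For MHC class II, 62.0% of saline cells had 0 UMIs and the median was 0, while 8.18% of NP cells had 0 and the median was 5 (2 and 8). The 20 saline cells with most class II UMIs held 72.7% of all such UMIs, and the same share of NP cells, 77, held 35.6%. Part of the saline concentration lay in cells that also showed RNA of another cell type: 5 such saline cells held 357 of the 820 class II UMIs (43.5%), and 9 such NP cells 317 of 14921 (2.12%). Without them, the 19 saline cells with most class II UMIs held 54.6% and the 76 NP cells 34.9%. Among the thinned cells, class II RNA was thus seen in a minority in saline and in most in NP, and class I in all cells of both. Across the 721 NP cells Spearman's rho between MHC class I and class II UMIs was 0.45, and between class II and the interferon-gamma list without its MHC genes 0.32; across the 179 saline cells these were 0.13 and −0.05, all points of 1 library, thinned to 1 depth.

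**Figure D3:**
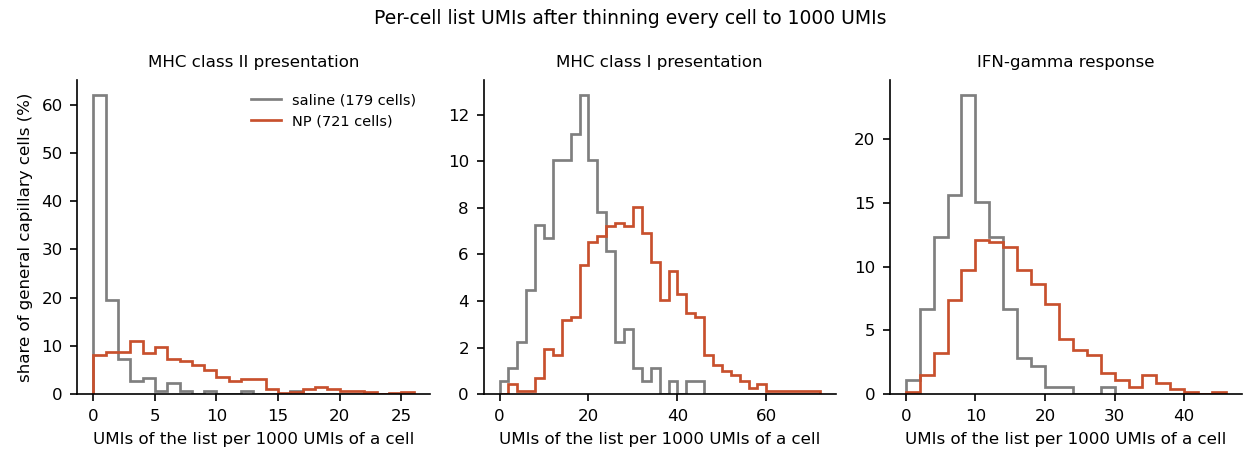
Percent of general capillary cells (vertical axis) by their UMIs of the MHC class II, MHC class I and interferon-gamma lists among 1000 UMIs (horizontal axis), for 179 saline and 721 NP cells; the last bin collects all higher values. For class II 62.0% of saline cells are at 0 and the median NP cell has 5, and for class I the NP cells are shifted from a median of 17 to 29.

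RNA set free by broken cells enters every droplet and was estimated from barcodes under 50 UMIs, scaled by neutrophil genes. It came to 2.34% of the UMIs of general capillary cells in saline and 2.19% in NP. It would give 49.1 and 107 CPM of the MHC class II list, where 1282 and 5925 were seen, and 104 and 170 CPM of the interferon-gamma list, where 9045 and 15057 were seen. In T cells the same estimate gave 36.7 and 51.9 CPM of class II and 163 and 214 were seen, above the estimate, and whether background beyond it adds to the saline class II value was not tested. The T cell values were under the 1282 and 5925 CPM of general capillary cells, but the T cells were deeper. Their medians were 5979.5 and 6119 UMIs, against 2775 and 2674.5 in general capillary cells. A background equal per droplet would thus give fewer CPM in T cells.

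The interferon-alpha list, 37 of whose 44 genes had at least 20 UMIs, had a median of 0.43, with 29 above 0, 10 at least 2-fold higher and 0 lower. For all genes with at least 20 UMIs the shares 2-fold higher and lower were 3.89% and 3.13%. Zbp1, a sensor of Z-form nucleic acid, had 7 UMIs in saline and 126 in NP, a ratio of 2.19 (1.11 to 3.54). Isg15, a ubiquitin-like modifier, had 29 and 272, a ratio of 1.25 (0.70 to 1.86). The abundant Ly6e was at 0.28. At the low end Oas1a, which senses double-stranded RNA, had 7 and 17 UMIs (−0.70, interval −2.04 to 0.82), and Irf7, the amplifier of the type I response, had 20 and 98, a ratio of 0.32 (−0.39 to 1.09). Genes usual to type I interferon were thus mixed, where those of the interferon-gamma list all had ratios above 0. Both lists were chosen with earlier results known.

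Inflammatory genes of the TNF and NF-kB list had a median of 0.26 over 29 of 41 genes, 7 at least 2-fold higher and 0 lower. Beside this and the adhesion list, 3.89% of all genes were at least 2-fold higher and 3.13% at least 2-fold lower. The most abundant, Nfkbia, the feedback inhibitor of NF-kB, was at 0.07. Vcam1, the venular adhesion molecule, had 4 UMIs in saline and 41 in NP (1.38, interval −0.08 to 3.32), and Tnfaip3, a further inhibitor, had 15 and 119 (1.01, interval 0.23 to 1.89). Of the adhesion list, 15 of 21 genes were measured with a median of 0.00, 1 at least 2-fold higher and 2 at least 2-fold lower. Icam2, the constitutive ligand of leukocyte integrins, was at 0.32 (0.17 to 0.48). The interferon-gamma list thus stood well above the NF-kB and adhesion lists, while the interferon-alpha list (0.43) lay close to the NF-kB list (0.26).

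Of 17 chemokine genes 10 were measured, with a median of 0.58 and 4 at least 2-fold higher, where 3.89% of all genes were. Cxcl12, the ligand of CXCR4 that capillary endothelium makes, had 208 UMIs in 69 saline cells and 1259 in 369 NP cells, 325 and 500 CPM, a ratio of 0.62 (0.41 to 0.84). Cxcl10, which draws T cells through CXCR3, had 4 UMIs in 2 saline cells and 100 in 14 NP cells, up to 32 in 1 cell. Ccl5 had the highest ratio of the compared genes, 5.21 (3.84 to 7.09), but its 582 NP UMIs were in 16 cells and 314 of them in 1 cell. Without the highest doublet scores the Ccl5 ratio was 3.03 (1.64 to 4.93). T and NK cells also make Ccl5, and their list went from 111 to 364 CPM in the same cells; the part of such RNA in the Ccl5 value was not tested. Cxcl12 RNA was thus in many cells, and Cxcl10 and Ccl5 RNA in few.

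Lists of the vessel's own work lay near 0. The VEGF and angiopoietin list had a median of 0.12 over 22 genes, with 3 at least 2-fold higher where 3.89% of all genes were. Its main receptors Kdr (VEGFR2) and Flt1 (VEGFR1) were at 0.05 (−0.16 to 0.27) and 0.20 (0.06 to 0.35). The junction list had a median of −0.06 over 17 genes with 0 past 2-fold either way, where Gja4 (connexin 37) was at 0.50 (0.29 to 0.72) and Tmem204 at −0.51 (−0.79 to −0.23). The lists of caveolae (−0.13 over 10 genes), NOTCH signaling (−0.05 over 12), oxidative phosphorylation (−0.08 over 31) and glycolysis (−0.09 over 23) also had 0 genes past 2-fold either way. Other lists had medians near 0 with some genes past 2-fold: basement membrane had a median of 0.02 over 17 genes, 1 higher and 0 lower, Wnt signaling −0.03 over 11, 3 higher and 0 lower, coagulation −0.09 over 11, 0 higher and 1 lower, and the antioxidant response −0.07 over 17, 0 higher and 1 lower. The cell cycle list had 11 of 25 genes measured, a median of 0.26 and 1 gene at least 2-fold higher, Cenpa, with 3 and 31 UMIs. Barrier, caveolar and energy genes of general capillary cells were thus at like levels in both libraries.

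Lipid handling, for which GPIHBP1 carries lipoprotein lipase to the capillary lumen, had a median of −0.02 over 17 genes, 0 at least 2-fold higher and 2 at least 2-fold lower. Over all genes the shares past these limits were 3.89% and 3.13%. Lpl, the lipase, was at −0.02, with 260 UMIs in saline and 1006 in NP. Scarb1, the receptor for high-density lipoprotein, went from 239 to 156 CPM, a ratio of −0.62 (−0.89 to −0.34), and Fabp5, a fatty acid carrier, had 57 and 104 UMIs, a ratio of −1.11. Lyve1, the hyaluronan receptor, went from 594 to 393 CPM, a ratio of −0.59 (−0.77 to −0.42). The median of its scavenger receptor list was 0.00 over 12 genes, 1 at least 2-fold higher and 1 at least 2-fold lower.

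Single targets of flow, NOTCH and BMP signals had lower values in NP, while their lists as a whole lay near 0. Klf2, a factor induced by laminar flow, went from 2007 CPM in saline to 1544 in NP, a ratio of −0.38 (−0.47 to −0.29), and Klf4 was at −0.37. Hes1, a NOTCH target, went from 372 to 233 CPM, a ratio of −0.67 (−0.89 to −0.45), and Notch4 was at −0.47 (−0.78 to −0.15). Id1, a direct target of BMP signals, went from 1017 to 713 CPM, a ratio of −0.51 (−0.64 to −0.38). The shear and vasoactive list, which holds Klf2, had a median of 0.08 over 21 genes, 12 of them above 0, 4 at least 2-fold higher and 0 lower, and the BMP and TGF-beta list −0.04 over 19, 1 higher and 0 lower. Among all genes 3.89% were higher and 3.13% lower to that degree. Edn1, endothelin, was higher at 0.64 (0.35 to 0.95), and Nos3, the endothelial nitric oxide synthase, had 5 and 52 UMIs (1.40, interval 0.09 to 3.08). The soluble guanylate cyclase gene Gucy1a1, with 14 and 199 UMIs (1.85), is also a gene of pericytes and was seen in 7 and 39 cells. The lower genes all differed by under 2-fold, and Nos3 and Gucy1a1 rested on few saline UMIs.

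Genes that respond to tissue digestion were counted beside these, since several of them are also flow and stress genes. Their list had a median of −0.29 over 25 genes, 2 at least 2-fold higher and 0 lower, where 3.89% and 3.13% of all genes were. Fos was at −0.11, Jun at −0.22, Egr1 at −0.64 and Socs3 at −0.84, while the heat shock genes Hspa1a and Hspa1b, a near-identical pair, stood at 1.86 (1.42 to 2.35) and 2.19 (1.67 to 2.76), in 18 and 15 saline cells and 129 and 144 NP cells. Whether the digestion had a part in the values of Klf2, Klf4, Hes1 and Id1 was not tested.

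**Figure D4:**
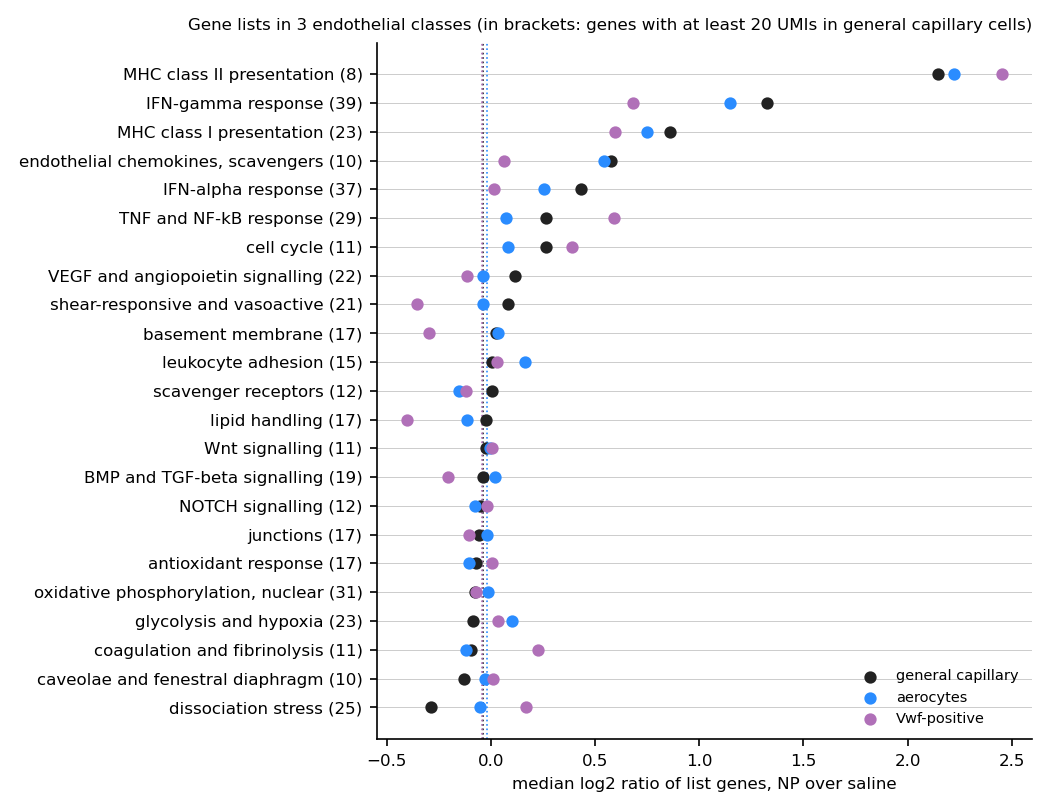
Median log2 ratio of NP to saline for 23 gene lists in general capillary cells, aerocytes and Vwf-positive endothelial cells, over list genes with at least 20 UMIs in that kind of cell (numbers in brackets are for general capillary cells); dotted lines mark the medians of all genes. MHC class II (2.15 in general capillary cells), interferon-gamma (1.33) and MHC class I (0.86) have the highest medians in general capillary cells and aerocytes; in Vwf-positive cells MHC class I (0.60) and interferon-gamma (0.68) lie beside TNF and NF-kB (0.59).

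RNA of other cell types also differed between the libraries. The epithelial list had 14 genes measured, median −1.65, 11 at least 2-fold lower in NP and a sum of 15229 CPM in saline and 4857 in NP. Over all genes 3.13% were at least 2-fold lower. Its most abundant gene, the surfactant gene Sftpc, had 7044 and 8059 UMIs, of which 3841 were in 1 saline cell and 4474 in 1 NP cell, so these values follow single cells. Its direction was not stable: Sftpc was at 1.05 without cells that show another cell type and at 1.24 with at least 5 UMIs of Gpihbp1 and Plvap. At 1000 UMIs a cell it was seen in 17 of 179 saline and 130 of 721 NP cells, more widely in NP, and in 3.65% and 8.53% of T cells. Of the 10 genes lowest in NP outside the other-cell lists, several are also known from alveolar epithelium, among them Lyz1 (−3.04, with 612 of its 614 saline UMIs in 1 cell), Slc34a2, a phosphate carrier (−2.47), and Cldn18, a tight junction gene (−2.14).

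The erythroid list went from 61.0 to 813 CPM, with Hbb-bs, a globin, at 16 and 1069 UMIs and 1590 of the 2047 NP UMIs of the list in 1 cell. The T and NK cell list went from 111 to 364 CPM, with 10 of 14 genes at least 2-fold higher and Gzma, a granule protease, at 1 and 241 UMIs. Beside this and the next list, 3.89% of all genes were at least 2-fold higher. The pericyte and smooth muscle list went from 128 to 358 CPM, 6 of 8 genes at least 2-fold higher, Cox4i2 the most abundant. The platelet list went from 28.1 to 125 CPM, with Pf4, a platelet chemokine, at 8 and 99 UMIs.

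Cells that make class II on their own account bear on the class II values directly. Dendritic cells, whose share of lung cells the study reported as larger with NP, had no list here. The cells left out as showing another cell type were not chosen by dendritic cell genes. Whether dendritic cell RNA adds to the class II values was not tested. The B cell list went from 23.4 to 42.9 CPM, with its gene Cd79a at 0 UMIs in both libraries because the rule requires it. The monocyte and macrophage list went from 1089 to 428 CPM, with Lyz2 its most abundant gene, 384 of its 697 saline UMIs in 1 cell, a median gene ratio of 0.09, and Csf1r (used by the rule) and C1qa at 0 UMIs in both libraries. The neutrophil list went from 3406 to 2163 CPM and the fibroblast list from 516 to 388. With the 5 saline and 9 NP cells that showed RNA of another cell type left out, Cd74 stood at 3.28, H2-Aa at 2.95, H2-Eb1 at 2.89, Ciita at 4.05 and Gbp5 at 3.37, and the medians of the interferon-gamma and MHC class I lists at 1.27 and 0.80. The interferon-gamma and MHC class I medians were thus nearly as large without those cells. The median of the MHC class II list was larger, 2.92 in place of 2.15, while Ciita, also on that list, was slightly lower (4.05 in place of 4.13). Those 5 saline cells held 357 of the 820 saline class II UMIs. Of the 78 genes at least 2-fold higher in that set, 74 were among the 90.

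**Figure D5:**
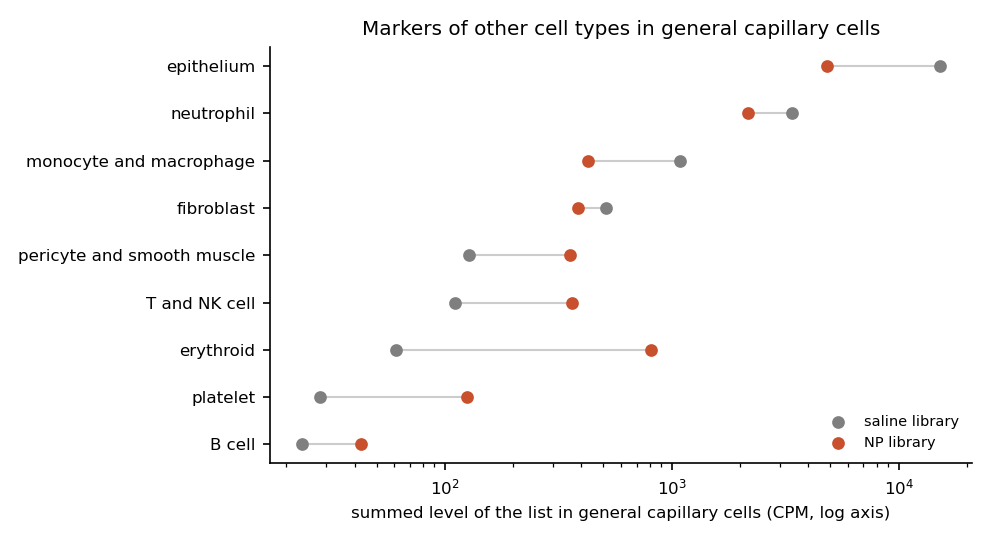
Summed CPM of 9 lists of other cell types in the general capillary cells of the saline and NP libraries (logarithmic axis); the neutrophil list includes S100a8 and S100a9, which the rule limits. Epithelial RNA is the highest of these sums, 15229 CPM in saline and 4857 in NP, and erythroid RNA has the widest gap in the other direction, 61.0 and 813 CPM. Of the 2047 erythroid UMIs in NP, 1590 were in 1 cell.

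The same ratios were taken in the other endothelial cells of the lung, 155 saline and 495 NP aerocytes and 31 and 100 Vwf-positive cells, whose median depths were 3873 and 4209 UMIs and 4924 and 5764.5 UMIs. These classes come from the same mice, so they show no independent support. The interferon-gamma list had a median of 1.15 in aerocytes, with 21 of 40 genes at least 2-fold higher, and 0.68 in Vwf-positive cells, with 12 of 32. Over all genes with 20 UMIs or more, 4.29% in aerocytes and 4.35% in Vwf-positive cells were 2-fold higher or beyond and 2.14% and 4.04% lower to that degree. At 100 UMIs or more these were 1.35% and 2.43% higher and 0.386% and 0.459% lower. MHC class I was at 0.75 and 0.60. The median for MHC class II was 2.22 in aerocytes, whose class II sum went from 848 to 3735 CPM, and 2.45 in Vwf-positive cells, from 384 to 3231 CPM. Ciita stood at 2.84 (1.44 to 4.74) in aerocytes. Cd74 was seen in 12.2% of saline and 57.8% of NP aerocytes at 1000 UMIs a cell, and in 6.45% and 63.6% of Vwf-positive cells. The higher interferon and MHC values were thus not particular to general capillary cells, which in each library had the highest class II sum of the 3 kinds. With cells that show another cell type left out of each kind, the saline sums were 785 CPM in general capillary cells, 732 in aerocytes and 390 in Vwf-positive cells, and the NP sums 5941, 3720 and 3272 CPM, so the saline gap to aerocytes was small.

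Some genes had unlike ratios in the kinds of endothelial cell, without a test of the difference. Klf2 was at −0.38 (−0.47 to −0.29) in general capillary cells, −0.09 (−0.18 to 0.01) in aerocytes and −0.50 (−0.65 to −0.35) in Vwf-positive cells. Hes1 was at −0.67, −0.22 and −0.15 in the same order. For Unc5b, a netrin receptor of endothelium, 8 and 105 UMIs gave 1.74 (0.71 to 2.99) in general capillary cells and the aerocyte ratio was −0.07. Scarb1 was at −0.62, −0.19 (−0.48 to 0.12) and −1.29 (−1.97 to −0.57).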

How the data were processed

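Single-cell libraries (10x Genomics) of liberase-digested lungs, after lysis of red cells, were analysed from the count matrices the authors deposited, which hold whole UMI counts per gene and barcode, not normalized. The submitters' processing notes name bcl2fastq and Cell Ranger 6.0 with mm10, while the file headers name Cell Ranger 4. The libraries held 91168129 (saline) and 90081747 (NP) UMIs over 32285 genes. Counts were summed over the chosen cells of a library and divided by their total (CPM). A gene's ratio has an exact conditional binomial 95% interval, and shares a Clopper-Pearson interval. Genes were counted as 2-fold past at 100 UMIs or more over both libraries, and list genes at 20 or more.

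T cells of both libraries served as reference for free RNA. Scrublet, run in scanpy 1.11.5, marked 0.0115% of saline and 3.73% of NP cells at its own limit, so doublets were kept, and the 8% of cells with the highest scores were left out as an alternative. Other alternatives changed the limits of the rule, the UMI minimum, the weighting of cells and the depth, and 1, leaving out cells that show another cell type, was chosen after seeing the data. Cells, lists and genes were chosen with earlier results of these data known. Named were the genes of the rule and its markers, the 10 highest and 10 lowest genes outside other-cell lists, and in each list the 3 highest, 3 lowest and 3 most abundant, with others named as such. Further list members are named for their roles, and some genes under the rule are not reported here. On simulated counts of 4929 genes, 200 of them changed, the interval held the true ratio for 95.7% of genes. This checks the calculation and does not show that the intervals cover UMIs held in few cells. Lyz1, for one, had 612 of its 614 saline UMIs in 1 cell. Sums, ratios and intervals were computed with scipy 1.17.1 and pandas 2.3.3 on Python 3.11.15, and plots drawn with matplotlib 3.10.9.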

Additional observations from a re-analysis of the deposited data

How the results depend on the processing

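No paired analysis was possible because each group had 1 library. Over 14 alternatives the list medians ranged from 1.18 to 1.62 for interferon-gamma, 0.75 to 0.97 for MHC class I, 0.28 to 0.60 for interferon-alpha and 0.11 to 0.41 for TNF and NF-kB. The MHC class II median (2.15) ranged from 1.82 to 2.92: it was 1.82 with at least 2 UMIs of Gpihbp1 and Plvap, 2.66 with each cell weighted equally, 2.65 with cells thinned to 1000 UMIs and 2.92 without cells that show another cell type. The log2 ratio of the share of general capillary cells (1.24) was 1.99 without the S100a8 and S100a9 limit and ranged from 1.15 to 1.99. The number of genes at least 2-fold higher (90) was 55 without the highest doublet scores, 37 after thinning, 176 at 50 UMIs or more and 45 at 200 or more. The number at least 2-fold lower (43) was 18 with at least 5 UMIs of Gpihbp1 and Plvap, 8 after thinning, 100 at 50 UMIs or more, 19 at 200 or more and 22 without cells that show another cell type. Fewer UMIs or another minimum change how many genes are compared; otherwise the cause was not tested.

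Single genes reversed where a few cells held their UMIs. S100a4 went to −1.14 with at least 2 UMIs of Gpihbp1 and Plvap. With at least 5, Lyz1 went to 4.49, Slc34a2 to 1.87 and Sftpc to 1.24. Without cells that show another cell type, Lyz1 was at 1.06, Sftpc at 1.05 and Hbb-bs at −1.15, and Hbb-bs was at −0.87 without the highest doublet scores. With mitochondrial UMIs under 5%, Igtp was at 3.02 (2.01 in the main set), Hspa1a at 2.89 (1.86) and Cd74 at 1.99 (2.19), and 0 of 52 genes followed reversed. Depth limits the rare genes most: in saline 3 UMIs are 4.69 CPM, so genes such as Ciita have wide intervals.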

Other observations

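The Sprouty genes Spry4 and Spry1, inhibitors of receptor tyrosine kinase signals such as those of FGF and VEGF receptors, were chosen after their values were seen. Spry4 had 122 UMIs in 72 saline cells and 199 in 140 NP cells, 191 and 79.0 CPM, a log2 ratio of −1.27 (−1.60 to −0.93). Its ratio was −1.09 (−1.44 to −0.73) in aerocytes and −1.49 (−2.12 to −0.84) in Vwf-positive cells. Spry1 had 89 UMIs in 62 saline cells and 169 in 125 NP cells, a ratio of −1.05 (−1.43 to −0.66) in general capillary cells, −0.57 (−0.98 to −0.14) in aerocytes and an interval of −2.15 to 0.25 in Vwf-positive cells. Both were lower in NP without resting on single cells. With cells that show another cell type left out, Spry4 stood at −1.35.

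Cd200, a membrane protein that restrains myeloid cells through its receptor, was also chosen after its values were seen. It had 190 and 349 UMIs, 297 and 139 CPM, a ratio of −1.10 (−1.36 to −0.84), beside −0.41 in aerocytes and −0.09 in Vwf-positive cells. The serine protease inhibitor gene Serpina3g, outside the lists, had 102 and 904 UMIs (1.17), and the aminopeptidase gene Lap3 had 15 and 181 (1.62). Whether these differences would recur between mice was not tested.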
